A study of Mus musculus with 6 samples.

Results

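Imprinted genes and the clusters they lie in were followed through lists of promoter-anchored chromatin interactions of mouse embryonic stem cells (mESCs). The set holds 40 genes of 16 imprinted clusters, chosen by name, and 37 of them stand as promoters in at least 1 of the lists, which name 21956 genes in all. HiCap couples Hi-C, in which MboI cuts chromatin at GATC before ligation, to sequence capture of promoter fragments, and 2 biological replicates of the R1 line were profiled with it. Hi-C without capture has 2 replicates of the same line, whose interactions the authors pooled into 1 list, and the 2 Capture-C samples were not analysed here. The cells were grown on gelatin in medium with serum and leukaemia inhibitory factor (LIF). Fixation was in 1% formaldehyde and lasted 10 min, and the MboI digest ran for 4 h. R1 is a single line and each list comes from bulk chromatin, so the maternal and the paternal allele could not be told apart. The lists hold positions without read numbers and no expression values, so the depth behind a pair is unknown and the cell type could not be checked against marker genes.

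In an imprinted gene the copy inherited from 1 parent is expressed and the other is silent. Imprinted genes lie in clusters, each governed by an imprinting control region that is methylated in 1 germ line and not in the other. The unmethylated copy of such a region binds the insulator protein CTCF upstream of H19, and in the Kcnq1, Igf2r and Gnas domains it drives a long noncoding RNA that silences neighbouring genes in cis. The zinc finger protein ZFP57 binds a methylated hexamer in many control regions and keeps their methylation in embryonic stem cells. Which promoter contacts are seen around these genes was therefore described cluster by cluster.

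An interaction was called when both HiCap replicates listed the same promoter fragment with the same distal region, and distances are between fragment midpoints. Promoter and distal fragments are given by their ends on mm9 as listed, and all 68 promoter and 2017 distal fragments of the imprinted genes end at an MboI site. The sequences that follow show what 3 kinds of fragment look like: sites with the core of the CTCF motif, the distal region linked to the most genes, and promoters that hold the ZFP57 hexamer. The CTCF core was searched on both strands in 2 forms that may overlap, a general one and the one found upstream of H19. The 29-base windows stand 5′ to 3′ on the strand of the match, with the core in capitals.
Cdkn1c, called region 3.05 kb upstream, chr7:150649976-150650004, minus strand: caagtcggcCACCAGGGGGCagcatgaag
Slc22a18, called region 3.68 kb upstream, chr7:150656056-150656084, minus strand: gaccttggcCAGCAGGCGGCgcccaggtc
Slc22a18, called region 6.88 kb downstream, chr7:150666597-150666625, plus strand: agggagttcCACCAGGGGGCgctacagtg
Zim1, called region 5.85 kb downstream, chr7:6643015-6643043, plus strand: acacattccCACCAGGAGGCaatacagct
Commd1, called region 356 kb downstream, chr11:22526866-22526894, plus strand: acattagggCAGCAGGAGGCctgtgactg
H19, region of replicate 2 only, 3.86 kb upstream, chr7:149767930-149767958, minus strand: gagttgccgCGTGGTGGCAGcaaaatcga

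Of the 179 called distal regions of the imprinted genes, 11 held this core, or 6.15% (95% interval 3.11 to 10.7, exact binomial), beside 3.95% of all 71955 called distal regions. This and the later intervals cover counting error only, and pairs that share a fragment are not independent. The called regions of imprinted genes were also longer, with a median of 644 bp beside 568 bp over all, and the shares were not adjusted for length. The 11 regions belong to 9 genes, with 3 of them at Slc22a18 and 1 each at Cdkn1c, Phlda2, Tssc4, Zim1, Blcap, Mcts2, Impact and Commd1. A match describes the letters and not a bound site. Among the promoter fragments, 6 of 68 held it, at H19, Kcnq1ot1, Cdkn1c, Mest, Gnas and Nespas, or 8.82% (3.31 to 18.2) beside 7.27% of all 33329 listed promoter fragments.

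The distal region linked to the most genes, chr7:150248442-150248704, overlaps an exon of the tetraspanin gene Cd81, and it was called for 9 promoter fragments of 5 genes. Its 262 bases are given on the plus strand.
Cd81 exon region, chr7:150248443-150248704: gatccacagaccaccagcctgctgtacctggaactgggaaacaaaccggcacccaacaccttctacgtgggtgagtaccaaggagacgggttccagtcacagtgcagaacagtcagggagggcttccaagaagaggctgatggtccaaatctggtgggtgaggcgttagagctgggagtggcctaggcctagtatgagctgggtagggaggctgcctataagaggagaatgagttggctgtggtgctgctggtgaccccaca

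The ZFP57 hexamer TGCCGC, searched on both strands, stood in 26 of the 68 promoter fragments, or 38.2% (26.7 to 50.8), beside 23.4% of all listed promoter fragments. The most hexamers in a fragment were 6, in the fragment named for Blcap that also holds start sites of Nnat, followed by 5 in the Nespas fragment and 4 in a Mest fragment. Genes with a germline-methylated region at the promoter, by the textbook account, had the hexamer in 9 of 25 fragments. The other imprinted genes had it in 17 of 43. Counted singly, 22 hexamers stood in the first class and 26 in the others, and a difference between the classes was not tested. These classes go by gene name and not by fragment. All Grb10 fragments therefore count in the first class, and the fragments of Gnas and Blcap count among the others. In the called distal regions the hexamer stood in 18 of 179, or 10.1% (6.07 to 15.4), beside 7.02% of all. The letters AAGATGGC of the factor YY1, which binds at Peg3, stood in 10 of 179, or 5.59% (2.71 to 10.0), beside 5.14%. Neither of these shares was adjusted for the length of the regions. To show the hexamer in place, stretches outside annotated untranslated regions are given on the plus strand for the fragment shared by Peg10 and Sgce and for that of Nespas, with the hexamers in capitals. The Nespas stretch holds 3 of the 5, of which the first 2 overlap on opposite strands.
Peg10 and Sgce promoter, chr6:4697205-4697305: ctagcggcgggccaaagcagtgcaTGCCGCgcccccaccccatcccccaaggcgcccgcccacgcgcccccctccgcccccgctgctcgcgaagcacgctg
Nespas promoter, chr2:174121158-174121457: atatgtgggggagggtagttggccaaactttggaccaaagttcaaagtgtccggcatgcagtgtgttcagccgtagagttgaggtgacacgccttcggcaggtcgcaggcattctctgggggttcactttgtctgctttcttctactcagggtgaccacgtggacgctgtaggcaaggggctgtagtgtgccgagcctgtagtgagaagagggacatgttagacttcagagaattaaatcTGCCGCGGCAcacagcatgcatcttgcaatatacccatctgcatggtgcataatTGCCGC

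All 37 listed genes stood in the list of HiCap replicate 1, 32 in that of replicate 2 and 29 in that of Hi-C. Of these 37 genes, 23 had a called interaction, or 62.2% (44.8 to 77.5), beside 60.9% of all 21202 genes listed in a HiCap replicate. The imprinted genes had 187 called pairs at 179 distal regions, from 28 of their 68 promoter fragments. The median number of calls per listed gene was 1, as over all genes, and per gene with a call it was 4, again as over all genes. The calls were uneven: Impact had 38, Mcts2 30, Commd1 19 and Slc22a18 18, and these 4 genes held 105 of the calls, or 56.1%. At the other end, Peg3, Meg3, Ube3a, Mkrn3, H13 and Rasgrf1 had 1 call each. Calls were present in 13 of the 16 clusters and absent from Igf2-H19, Grb10 and Plagl1.

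**Figure D1:**
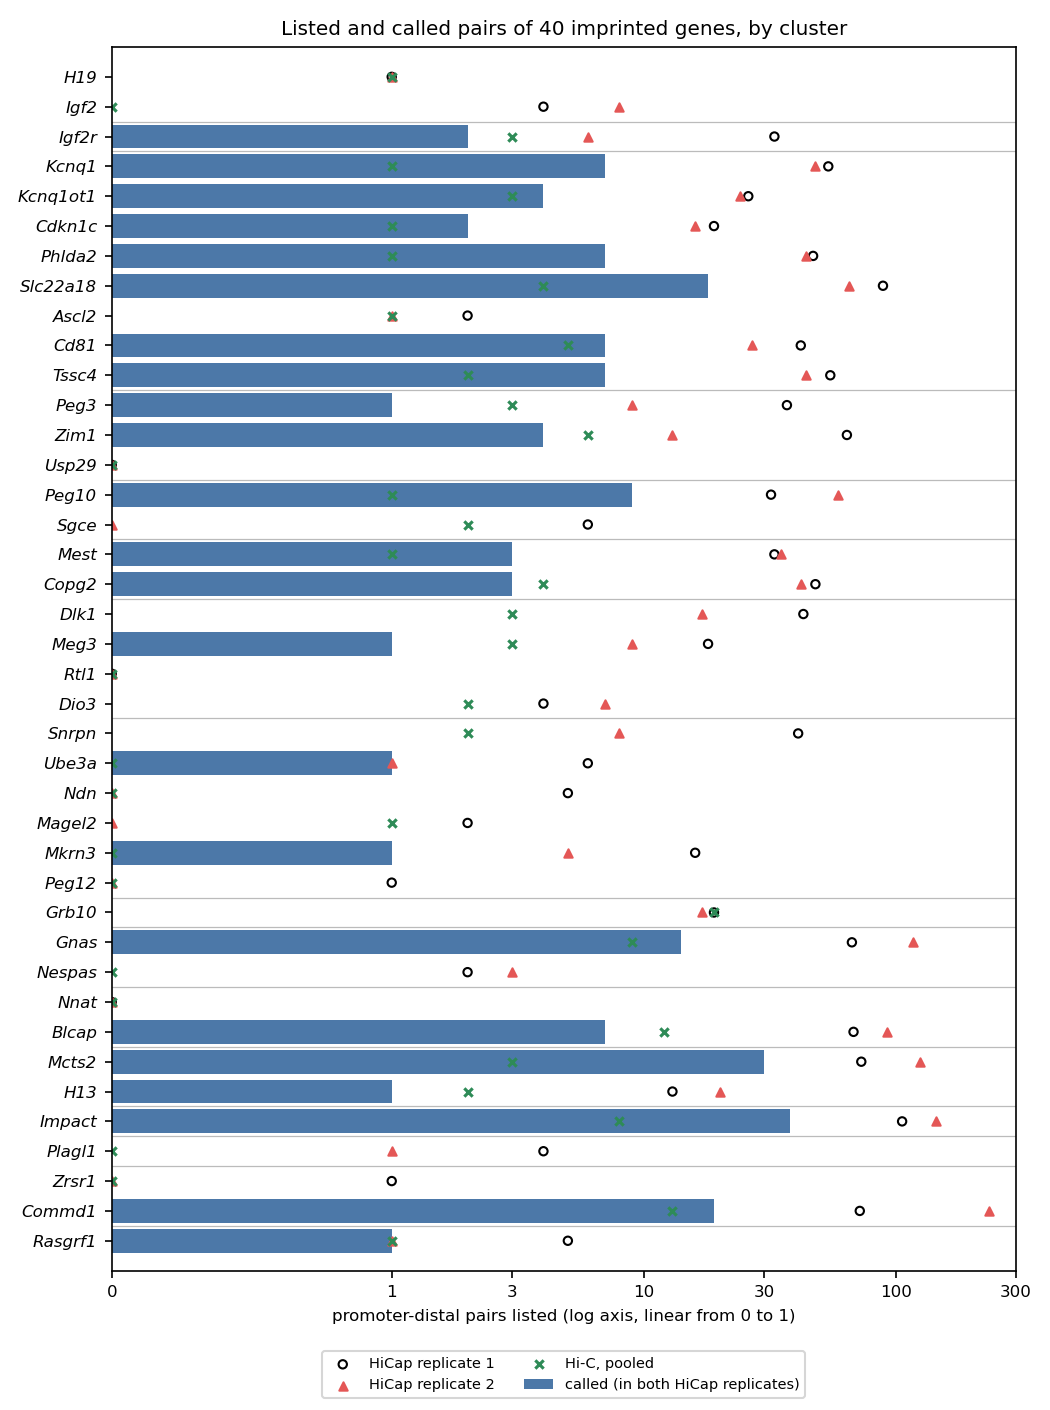
Promoter-distal pairs listed for each of the 40 imprinted genes, grouped by cluster, on a log axis that is linear from 0 to 1. Open circles, triangles and crosses are HiCap replicate 1, HiCap replicate 2 and pooled Hi-C, and bars are pairs called in both HiCap replicates; the longest bars are those of Impact (38) and Mcts2 (30), and genes such as Dlk1, Snrpn and Grb10 have symbols without a bar.

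Most pairs stood in a single replicate. Replicate 1 listed 1158 pairs of imprinted genes, of which 16.1% (14.1 to 18.4) were also in replicate 2, beside 19.0% over all genes. Replicate 2 listed 1245, of which 15.0% (13.1 to 17.1) were also in replicate 1, beside 17.1% over all genes. The replicates differed in reach: 233 pairs of replicate 2, or 18.7%, spanned over 1 Mb, against 1 pair, or 0.0864%, of replicate 1, and the shares over all genes were 19.4 and 0.371%. The median distance was 20.1 kb in replicate 1 and 144 kb in replicate 2, and 8.05 kb in the called pairs (quartiles 4.64 and 20.1), beside 10.3 kb over all called pairs. No called pair of an imprinted gene spanned over 1 Mb.

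By distance, 50 of the 187 calls (26.7%) lay between 1 and 5 kb, 58 (31.0%) between 5 and 10 kb, 42 (22.5%) between 10 and 25 kb and 19 (10.2%, 6.23 to 15.4) between 25 and 100 kb. The shares over all calls were 24.2, 24.7, 25.5 and 19.3%. Over 100 kb there were 18 calls of 7 genes, or 9.63% (5.81 to 14.8), beside 6.32% over all. Mcts2 had 7 of these, Commd1 5, Blcap 2, and Slc22a18, Zim1, Peg10 and Gnas 1 each. The calls lay on both sides of the promoter for 17 genes, only upstream for 4 and only downstream for 2. In all, 84 lay upstream and 103 downstream.

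**Figure D2:**
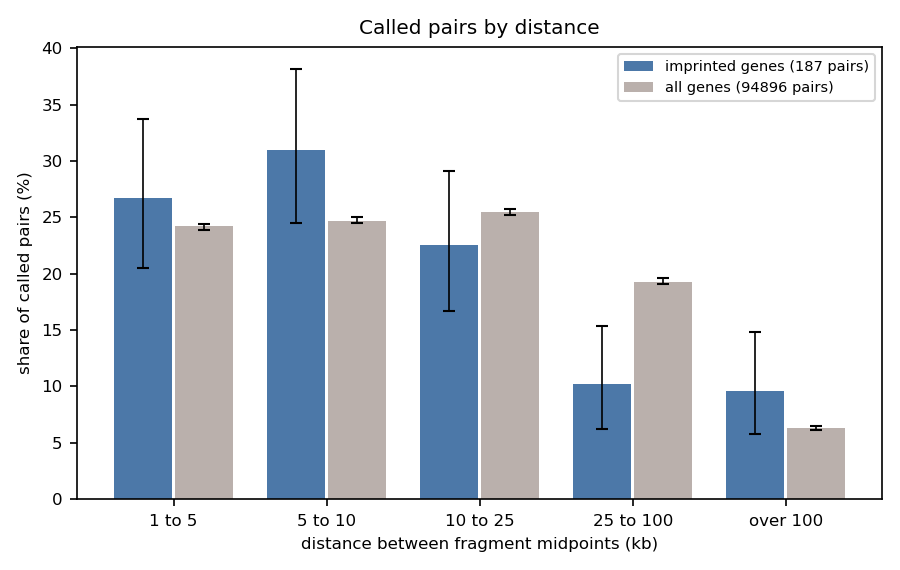
Share of the called pairs (%) against the distance between fragment midpoints (kb), with imprinted genes beside all genes and error bars as exact 95% binomial intervals. Between 25 and 100 kb lay 10.2% of the called pairs of imprinted genes and 19.3% of all called pairs, and over 100 kb 9.63 and 6.32%.

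The called distal regions had a median length of 644 bp and 47.1% G+C, beside 568 bp and 46.5% over all called regions. By annotation, 43 of the 179 (24.0%) overlapped an exon, 65 (36.3%) lay in introns and 71 (39.7%) between genes, where the shares over all were 24.4, 39.1 and 36.5%. None overlapped a captured promoter fragment by more than the 4 bp of a shared MboI site, beside 0.111% over all. The lists join promoters with distal regions, and the authors called contacts between promoters separately. The lack of overlap therefore follows from how the lists were made. An annotated start site lay in 2 regions, or 1.12% beside 1.09% over all, and 1 of them was that of Zrsr1. Counted by pair, 50 calls reached into the gene itself, 64 into another gene and 73 between genes. No captured promoter fragment, those of the same gene included, was skipped by 114 of the 187 calls (61.0%), beside 60.1% over all.

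The Kcnq1 domain on chromosome 7, with 8 of the genes, had 52 calls at 47 regions. Kcnq1 encodes a potassium channel, and the promoter of the noncoding RNA Kcnq1ot1, the control region of the domain, lies within it, 190 kb from the Kcnq1 promoter. Kcnq1 had 54 pairs in replicate 1, 48 in replicate 2 and 7 calls, 3 upstream of the gene and 4 in its own introns up to 22.0 kb away. In the fragment named for Kcnq1ot1, and within 200 bp of it, lay no annotated start site. Kcnq1ot1 had 26, 24 and 4 calls, all within introns of Kcnq1, 2 to either side of this fragment and at most 12.9 kb away. The called regions of both promoters thus stayed apart, and no region was called for both. A contact between the promoter fragments themselves would not be listed here, since the authors called contacts between promoters separately. Both nearest Hi-C contacts of Kcnq1ot1, at 3.61 kb downstream and 3.81 kb upstream, were called pairs. A Hi-C pair of Kcnq1 reached chr7:150474024-150474465, 181 kb into the gene and close to the Kcnq1ot1 fragment at chr7:150482221-150483142, but neither HiCap replicate listed it.

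Toward the end of the domain lie Cdkn1c, Slc22a18 and Phlda2, which are maternally expressed. Cdkn1c, which encodes the cell cycle inhibitor p57Kip2, had 19 pairs in replicate 1 and 16 in replicate 2, and 2 calls, at 3.05 kb upstream and 21.3 kb downstream. The upstream region, chr7:150649845-150650514, holds the first CTCF core shown. Slc22a18, a membrane transporter gene, had 89, 65 and 18, 9 to each side. Its 9 downstream calls run through the gene and past Phlda2 to 36.7 kb, and its farthest upstream call, chr7:150341496-150342317, lies 318 kb away in an intron of Kcnq1. Replicate 1 listed this same Kcnq1 region for Phlda2, at 347 kb. Phlda2, which encodes a PH-domain protein that limits growth of the placenta, had 47, 44 and 7, of which 3 lay in introns of Slc22a18 and 1 at an exon of Nap1l4.

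Slc22a18 and Phlda2, whose promoters lie 27.8 kb apart, were 1 of the 2 pairs of imprinted genes with a called region in common. The first shared region, chr7:150680870-150681741, is an intron of Slc22a18 at 21.4 kb from its own promoter and 8.05 kb from that of Phlda2. The second, chr7:150693315-150694513, is intergenic at 34.0 kb from Slc22a18 and 4.56 kb from Phlda2. They make up 2 of 18 regions of Slc22a18 and 2 of 7 of Phlda2. Beyond these shared calls, replicate 1 listed 5 other called regions of Slc22a18 for Phlda2, the Kcnq1 region among them, and replicate 2 listed 4. Replicate 1 also listed 4 other called regions of Phlda2 for Slc22a18. A region 3.68 kb upstream of Slc22a18 was also called for the cation channel gene Trpm5, 376 kb away.

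**Figure D3:**
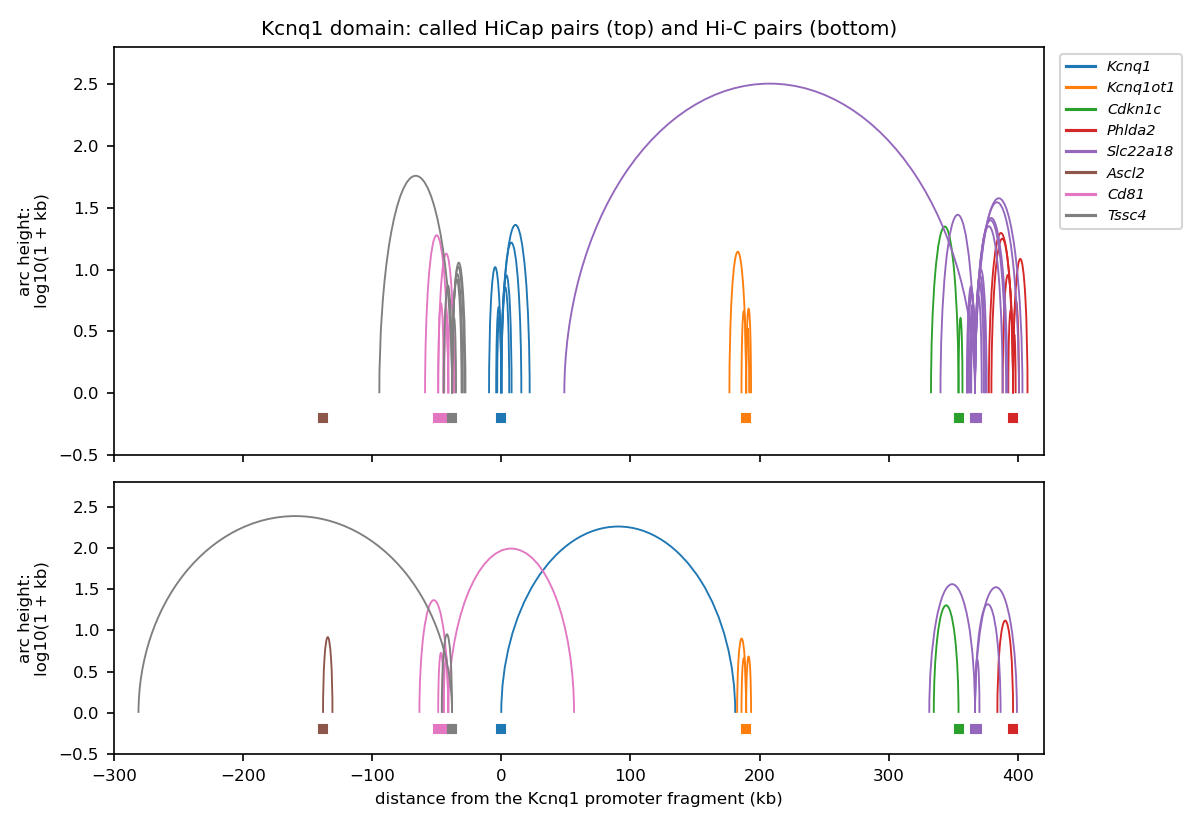
Called HiCap pairs (top) and pooled Hi-C pairs (bottom) of the 8 genes of the Kcnq1 domain, by distance from the Kcnq1 promoter fragment in kb, with arc height as log10 of 1 plus the distance in kb and squares at promoter fragments. The called arcs stay near their promoters apart from the 318-kb arc of Slc22a18 into Kcnq1, and the longest Hi-C arc is that of Tssc4, at 243 kb.

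At the other end of the domain, Cd81 and Tssc4 lie side by side. Cd81 had 42 pairs in replicate 1, 27 in replicate 2 and 7 calls at 5 regions, from 2 promoter fragments. The exon region printed above was called at 4.33 kb downstream of the first and 3.44 kb upstream of the second, and both pairs stood in Hi-C too. The same region was called for Tssc4 at 6.43 kb, Tspan32 at 44.9 kb, the transcript AC015800.4 at 9.30 kb and 4 promoters of Trpm5 at 11.3 to 31.9 kb. Another region, chr7:150255616-150257774, which spans exons of Tssc4 and Trpm5, was called for both Cd81 promoters, AC015800.2, AC015800.4 and Trpm5, and replicate 1 listed it for Ascl2 too. Tssc4 had 55, 44 and 7 calls, none of them in Tssc4: 5 lay in Trpm5, 1 in Cd81 and 1 in Tspan32, 56.3 kb upstream.

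Ascl2, a transcription factor gene of the trophoblast, had no call. Replicate 1 listed it with 2 regions and replicate 2 with 1. The region at 266 kb in replicate 1, chr7:150420208-150421303, and that at 269 kb in replicate 2, chr7:150423784-150424072, both lie in an intron of Kcnq1, 2481 bp apart. Hi-C listed Ascl2 with a region 7.29 kb upstream, which was in neither HiCap list.

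Igf2 and H19 share enhancers downstream of H19 in the classical model, and the control region that binds CTCF lies between them. H19, a noncoding RNA gene expressed from the maternal copy, had a single pair in each replicate and none called. Replicate 1 listed chr7:149768438-149769564, 4.83 kb upstream, and replicate 2 listed chr7:149767620-149768438, 3.86 kb upstream, so that both are neighbouring MboI fragments that meet at 1 site. Both lie upstream of H19, between the H19 and Igf2 promoter fragments, and their overlap with the control region was not examined. The replicate 2 fragment holds the CTCF core shown last among the windows, and the replicate 1 fragment holds none. Hi-C listed a region 7.60 kb downstream of H19 instead, chr7:149755867-149757264. Igf2, the fetal growth factor gene, had 4 pairs in replicate 1 and 8 in replicate 2, all downstream, on the side of H19, and no pair in Hi-C. Of those of replicate 2, 2 spanned over 1 Mb. Its nearest pairs were 6.69 kb away in replicate 1 and 13.1 kb away in replicate 2, and the closest regions of the 2 lists were 1893 bp apart. No list named a region of H19 for Igf2 or the reverse, but contacts between promoter fragments themselves are not part of these lists. Of the other listed genes around the cluster, 5 of 8 had a call, close to the 60.9% of all listed genes. They had 43 calls in all, led by 16 of Lsp1, 12 of Mrpl23 and 11 of the insulin gene Ins2.

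Igf2r, which encodes the receptor that carries Igf2 to the lysosome, had 33 pairs in replicate 1, 6 in replicate 2 and 2 calls. Both calls were from the fragment at its main start site, chr17:12961665-12963174. They lie 3.47 kb downstream, chr17:12958779-12959129, and 14.2 kb upstream, chr17:12976370-12976836, and both overlap Airn, the antisense RNA that silences Igf2r on the paternal copy. Hi-C had 3 pairs for Igf2r, none called.

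In the Peg3 cluster, Peg3 and Zim1, zinc finger genes of opposite parental expression, had promoters 26.8 kb apart. Peg3 had 37 pairs in replicate 1, 9 in replicate 2 and 1 call, at chr7:6689203-6689685, 6.12 kb upstream. Zim1 had 64, 13 and 4 calls, of which those at 3.97 and 5.28 kb upstream were in Hi-C, and the farthest lay 105 kb downstream. Usp29, a ubiquitin peptidase gene, was in no list. Its annotated start site lies 15424 bp from the nearest listed promoter fragment, which is named for Zim3.

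Peg10, a gene of retrotransposon origin needed by the placenta, had 32 pairs in replicate 1, 59 in replicate 2 and 9 calls. Of these, 7 lay upstream, all within the body of Sgce, at 3.27 to 60.2 kb. The nearest, chr6:4693488-4694425, was in Hi-C, and the farthest of all lay 146 kb downstream. Sgce, the epsilon-sarcoglycan gene, starts head to head with Peg10, and its own values are partly hidden by this: of its 8 annotated start sites, 2 lie within the fragment named for Peg10 and 4 lie within 99 bp of it. The fragments named for Sgce hold 2 internal start sites, with 6 pairs in replicate 1 and none in replicate 2. Hi-C listed a region for Sgce, chr6:4686168-4687665, that is a called region of Peg10.

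Mest, a hydrolase fold gene expressed from the paternal copy, and Copg2, a coatomer gene, have promoters 156 kb apart. Mest had 33 pairs in replicate 1, 35 in replicate 2 and 3 calls from 1 of 4 promoter fragments, at 5.13 and 6.26 kb downstream in its own exons and at 20.5 kb upstream. Replicate 1 listed both of the regions in Mest exons for Copg2 too, at 151 and 150 kb. Copg2 had 48, 42 and 3 calls, and the one at 6.43 kb upstream in Tsga13 was in Hi-C. In return, replicate 1 listed a called region of Copg2 for Mest at 162 kb.

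The Dlk1-Dio3 cluster on chromosome 12 had many pairs and 1 call. Dlk1, a transmembrane ligand related to the Notch ligands, had 43 pairs in replicate 1 and 17 in replicate 2, with no region in common. Of the 17 regions of replicate 2, 4 adjoined a region of replicate 1 and 8 lay within 1 kb of one. Meg3, the maternally expressed noncoding RNA, had 18, 9 and 1 call, chr12:110769561-110770506, at 9.05 kb upstream, and this pair was in Hi-C as well. Replicate 2 listed this region for Dlk1 too, at 78.5 kb, on the interval between both genes, whose promoters lie 87.5 kb apart. Dio3, the type 3 deiodinase gene, had 4 and 7 pairs, whose closest regions were 11 bp apart, and no call. Rtl1, a gene of retrotransposon origin, was in no list, and its start site lies 3493 bp from the nearest listed fragment, named for Rian. Of the listed genes around the cluster, all 4 had calls, beside 60.9% of all listed genes, among them 20 of Wars and 21 of Ppp2r5c.

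The Snrpn-Ube3a cluster had 2 calls in 6 genes. Ube3a, the E3 ubiquitin ligase gene of Angelman syndrome, had 6 pairs in replicate 1, 1 in replicate 2 and 1 call, chr7:66502541-66506049, an exonic region of Ube3a 20.2 kb downstream of its start. Mkrn3, a makorin gene, had 16, 5 and 1 call, 7.96 kb downstream. Snrpn, which encodes a spliceosomal protein, had 41 pairs in replicate 1 and 8 in replicate 2 and no call. Of the 8, 2 adjoined and 4 lay within 1 kb of a region of replicate 1, and 3 spanned over 1 Mb. A pair of replicate 1 joined the Snrpn fragment chr7:67149700-67150332 with the called region in Ube3a, 646 kb away. Ndn, Magel2 and Peg12 had 5, 2 and 1 pairs in replicate 1 and none in replicate 2. Of the genes around the cluster, 1 of 8 listed had a call, beside 60.9% of all listed genes.

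Grb10, an adaptor of insulin and growth factor receptors, had 19 pairs in replicate 1, 17 in replicate 2 and 19 in Hi-C, and no call. Replicate 1 spread its pairs over 6 promoter fragments. All 17 pairs of replicate 2 were of the single fragment chr11:11937080-11938761, which had 3 in replicate 1. The closest were neighbours, chr11:11948331-11949760 in replicate 2 and chr11:11949760-11950122 in replicate 1, at 11.1 and 12.0 kb upstream. Of the Hi-C pairs, 17 of 19 were in no HiCap list. The 4 genes around Grb10 all had calls, beside 60.9% of all listed genes, with 23 of Ddc at the head. Plagl1, the zinc finger gene also called Zac1, had 4 pairs in replicate 1, 1 in replicate 2 and none in Hi-C.

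**Figure D4:**
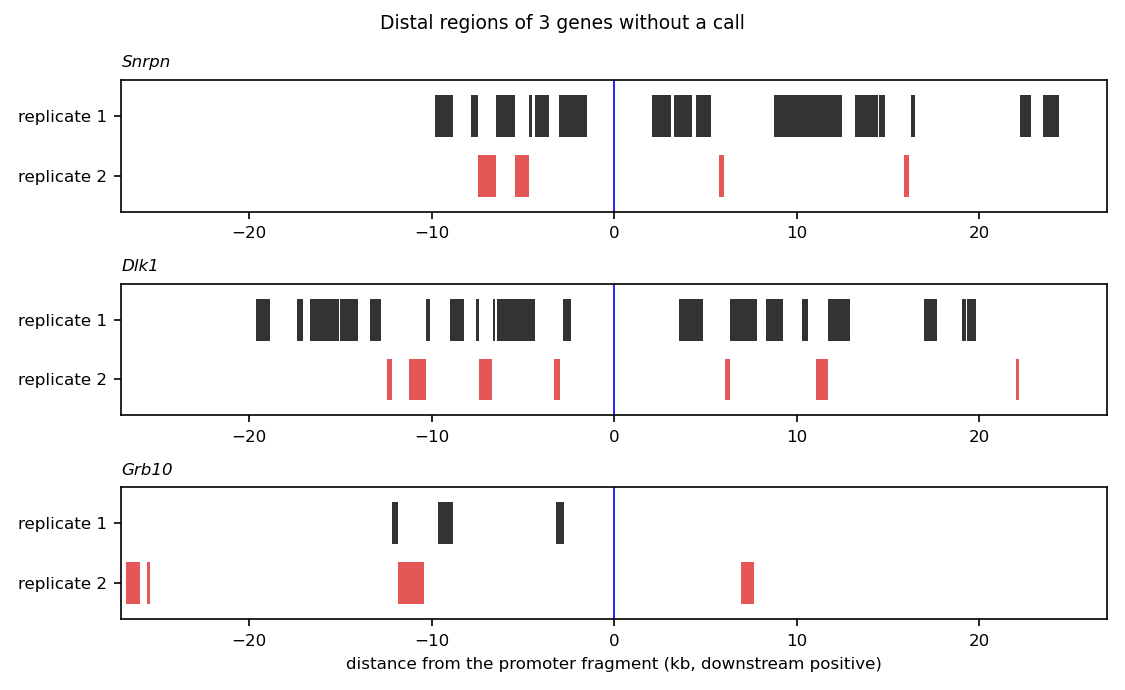
Distal regions listed for 1 promoter fragment each of Snrpn (chr7:67149700-67150332), Dlk1 (chr12:110691245-110691873) and Grb10 (chr11:11937080-11938761) by replicate, against distance from that fragment in kb within 27 kb of it. Replicate 1 shows 21, 26 and 3 regions in this window and replicate 2 shows 4, 8 and 4, and none of them coincide.

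Gnas, which encodes the stimulatory G protein alpha subunit, has several promoters with different parental expression. It had 67 pairs in replicate 1, 117 in replicate 2 and 14 calls, 8 of them from the Nesp promoter, chr2:174109437-174109851, 1 from the XLas promoter, chr2:174121688-174123573, and 5 from that of the alpha subunit, chr2:174155241-174155872. The fragment chr2:174152770-174154195, between the last of these and XLas, with 3 hexamers of ZFP57, had 1 and 16 pairs and no call. The calls of each promoter stayed within 9.68 kb but for 1, chr2:173949796-173951169, which lies 159 kb upstream of Nesp. Matched by gene name whatever the promoter fragment, Gnas had 22 calls in place of 14. The region at 159 kb was also called for Npepl1 at 5.18 to 14.3 kb, Mir296 at 142 kb and Vapb at 388 kb. Nespas, the antisense noncoding RNA of the domain, had 2 and 3 pairs and no call. Both of its regions in replicate 1 were called regions of Gnas, the far one at 171 kb and chr2:174125564-174125996 at 4.73 kb.

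Blcap, a small membrane protein gene that holds Nnat in its intron, had 68 pairs in replicate 1, 92 in replicate 2 and 7 calls, or 13 when matched by gene name, and those at 4.26 and 8.75 kb downstream were in Hi-C. From its other promoter fragment, 2 calls reached introns of the kinase gene Src at 105 and 115 kb. Nnat, the neuronatin gene, was named in no list. Of its 10 annotated start sites, 9 lie within the fragment named for Blcap, chr2:157385376-157386257, so that the 4 calls of this fragment cannot be told apart between them.

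Mcts2, a retrogene within the intron of H13, the signal peptide peptidase gene, had 73 pairs in replicate 1, 125 in replicate 2 and 30 calls from a promoter fragment of 153 bp. The calls lay mostly on 1 side, 26 downstream and 4 upstream. By place, 14 lay in H13 within 20.7 kb, 8 between genes, 5 in Bcl2l1 at 98.1 to 139 kb and 1 each in Gm17559, Cox4i2 and, at 189 kb, Tpx2. Of the 30 regions, 10 were shared with other genes, 8 of them with Id1, whose promoter lies 49.1 kb away and which had 62 called regions. The region chr2:152564832-152565768 was called for Mcts2 at 52.4 kb, Id1 at 3.33 kb, Cox4i2 at 14.6 kb and Bcl2l1 at 92.0 kb. H13 had 2 promoter fragments. That at chr2:152517544-152517960, 4.87 kb from Mcts2, had 7 pairs in replicate 1, 3 in replicate 2 and no call. The farther one, chr2:152495139-152495337, had 6 and 17 pairs and 1 call, at 2.41 kb upstream, which was not a called region of Mcts2. Matched by gene name, H13 had 2 calls. The lists of single replicates named 5 called regions of Mcts2 for H13.

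Impact, which restrains the kinase Gcn2 and lies on chromosome 18, had the most calls, 38 of 106 pairs in replicate 1 and 145 in replicate 2. They formed a dense field, with 23 upstream to 87.6 kb and 15 downstream to 32.6 kb, and 19 within 10 kb. Of these 38, 13 lay in Impact, 22 between genes and 3 in Osbpl1a. Counting adjoining fragments as 1, there were 28. Osbpl1a, an oxysterol-binding protein gene upstream, shared 2 of the regions. Hi-C listed 8 pairs for Impact, of which 6 were in replicate 1 and 2 were called, at 5.62 and 14.5 kb upstream.

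Commd1 and Zrsr1 have a like arrangement, with the retrogene Zrsr1 inside an intron of Commd1. Commd1, a COMM domain gene, had 72 pairs in replicate 1, 235 in replicate 2 and 19 calls at 16 regions from 2 promoter fragments, 9 and 10 each. Its far calls lay at 152, 190, 200, 321 and 356 kb. The region at 190 and 200 kb, chr11:22681354-22683667, was called for both Commd1 fragments, and replicate 1 listed it for Zrsr1, at 189 kb, as the only pair of that gene. The start site of Zrsr1 lies 50 bp from a Commd1 fragment and within a called region of the other, chr11:22873163-22875875. Commd1 shared 2 regions with Fam161a and 1 with Cct4. Rasgrf1, a Ras exchange factor gene, had 5 pairs in replicate 1 and 1 in replicate 2, and that 1 was called, chr9:89800409-89801915, at 3.25 kb upstream.

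**Figure D5:**
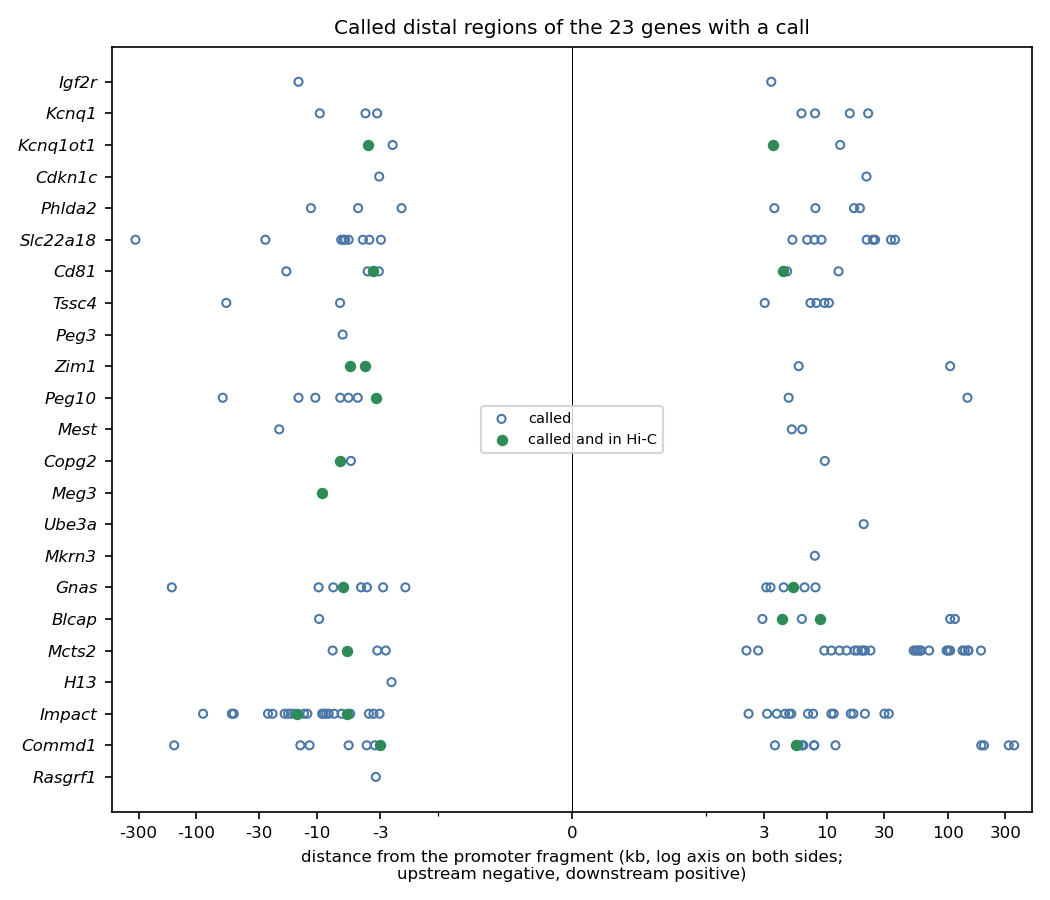
Called distal regions of the 23 imprinted genes with a call, by signed distance from the promoter fragment in kb on a log axis to both sides, upstream negative. Filled points are pairs also in Hi-C, all of them within 14.5 kb; the calls of Mcts2 extend to 189 kb downstream and those of Commd1 to 356 kb.

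Sharing of distal regions was read against all genes. Of the 179 called regions, 21 were linked to at least 2 genes, or 11.7% (7.41 to 17.4), beside 14.0% of all called regions. Only 3 of the 21 joined imprinted genes with each other, 2 of Slc22a18 and Phlda2 and 1 of Cd81 and Tssc4. The other 18 linked an imprinted gene with genes outside the set, 10 of them at Mcts2. Pairs without a call reached a region called for another gene in 10.5% of cases in replicate 1 and 9.45% in replicate 2, beside 15.9 and 13.3% over all genes.

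Of the 187 calls, 18 stood in the Hi-C list with the same fragments, or 9.63% (5.81 to 14.8), beside 12.5% of all calls. They belong to 11 genes: Kcnq1ot1, Cd81, Zim1, Gnas, Blcap, Impact and Commd1 with 2 each, and Peg10, Copg2, Meg3 and Mcts2 with 1 each. Their median distance was 5.26 kb, beside 6.07 kb over all calls in Hi-C. The farthest of these 18 was at 14.5 kb, and 62 of the 187 calls lay beyond that distance. Of all calls in Hi-C, 17.1% lay farther than 14.5 kb. The bound comes from the 18 calls themselves, and the difference was not tested. In the other direction, Hi-C listed 117 pairs of imprinted genes. Of these, 18 were called, or 15.4% (9.38 to 23.2), beside 15.8% of all Hi-C pairs, and 49 were in at least 1 HiCap list, or 41.9% (32.8 to 51.4), beside 39.4%. At least 1 Hi-C pair was present for 29 of the 37 genes, or 78.4% (61.8 to 90.2), beside 77.2% of all listed genes.

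The 14 listed genes without a call fell into 2 kinds. For Sgce, Ndn, Magel2, Peg12 and Zrsr1, only replicate 1 had any pair, from 1 to 6. For H19, Igf2, Ascl2, Dlk1, Dio3, Snrpn, Grb10, Nespas and Plagl1, both replicates had pairs but never the same one. By the parent whose copy is expressed in the textbook account, 15 of 18 listed maternally expressed genes had a call, with 100 calls, and 8 of 19 paternally expressed genes, with 87, of which Impact and Mcts2 held 38 and 30, beside 60.9% of all genes. The classes go by gene name, so that all promoters of Gnas and the Blcap fragment with start sites of Nnat count as maternal. Likewise, Sgce counts as without a call although most of its start sites lie in or beside the Peg10 fragment. Zrsr1 does so although its start site lies 50 bp from a Commd1 fragment with 9 calls. Genes of a class also share clusters: calls were present for 7 of 8 genes in the Kcnq1 domain and 2 of 6 in the Snrpn-Ube3a cluster. Which copy was expressed in these cells could not be seen from the lists. These counts describe the genes listed and were not tested.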

How the data were processed

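HiCap, Hi-C and Capture-C libraries of R1 mESCs were made by the authors, each in 2 biological replicates, and Capture-C was not analysed here. The authors ran HiCUP with Bowtie on mm9, aligning the ends singly after iterative trimming. Multi-mapping reads, duplicated pairs and pairs less than 1 kb apart had been removed, and a HiCap interaction needed 3 or more supporting pairs per replicate. The minimum behind the Hi-C list is not given in the sources used here. The deposited values are of another kind than counts: they are mm9 positions of promoter fragments, named by gene, and of their distal partners, without normalization. The 4 lists are HiCap replicates 1 and 2, the authors' combined HiCap calls and pooled Hi-C; the combined list names a nearby fragment for the calls of Tssc4 and of the Nesp promoter of Gnas. Contacts between promoters were called separately by the authors and are not among these lists. Read numbers are not in the lists, so the read support of each pair is unknown here and precision is given as exact binomial intervals at 95%.

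Samples were grouped by the assay in their labels. Each combination of a promoter fragment and a distal region was counted once per list, and those present in both replicate lists were called. Annotation was GENCODE of mm9, motifs were searched in the genome sequence, and shares over all genes or regions stand beside those of the imprinted genes. With 2 lists and no read numbers, no test between groups was made. All 40 genes are named, with genes that share a called region with them (at most 5 a cluster), the regions per cluster with the most genes, the farthest, the nearest and those in Hi-C. The genes, the lists of neighbouring and other imprinted genes and their textbook classes were chosen with earlier results of these data known. Symbols of neighbouring genes found in neither annotation nor list were left out after the data were seen, which changed no call. Alternatives were each replicate alone, the combined list, matching within 1 kb, matching by gene, only pairs over 15 kb, merged fragments, looser Hi-C matching, nearest edges and 1 mismatch in the motif. The counting was tested on simulated data with planted pairs. Python 3.11.15, pandas 2.3.3, scipy 1.17.1, pysam 0.24.0 and matplotlib 3.10.9 were used.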

Additional observations from a re-analysis of the deposited data

How the results depend on the processing

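With the authors' combined list, matching by gene name or merged adjoining fragments, the counts of imprinted genes with a call stayed at 23, and calls ranged from 161 to 204 and shared regions from 14 to 25. With a single replicate list, genes ranged from 32 to 37, pairs from 1158 to 1245, shared regions from 272 to 365, the median distance from 20.1 to 144 kb, pairs in Hi-C from 22 to 45, regions with a CTCF core from 37 to 43, and neighbouring and other imprinted genes with a pair from 127 to 138. With distal fragments within 1 kb taken as the same, there were 28 genes, 551 calls, 89 shared regions, 37 calls in Hi-C and 21 regions with the core, and the share found in the other replicate was 47.6% for replicate 1 and 34.1% for replicate 2. With pairs over 15 kb only, there were 15 genes, 61 calls, 8 shared regions, 0 calls in Hi-C and 2 regions with the core, and these shares were 9.24 and 6.14%. With a Hi-C region within 1 kb of the called distal region and the same promoter fragment, 60 calls were in Hi-C, and with one within 5 kb and the same gene, 99. With 1 mismatch allowed, 94 regions held the core. The alternatives for neighbouring genes and for single genes were chosen after seeing the data, and for single genes matching within 1 kb moved the count by more than 1.5 times for 21 of 23 and matching by gene name for 3, Gnas from 14 to 22, Blcap from 7 to 13 and H13 from 1 to 2. No paired analysis was possible because the lists carry no values to test and the Hi-C replicates are pooled. The read support of each pair is unknown, so a pair in 1 list only may have missed the minimum of read pairs in the other.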

Other observations

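Genes that lie in or beside the same clusters also had calls. Of 125 symbols of such genes, 108 were listed in a HiCap replicate and 73 had a call, or 67.6% beside 60.9% over all listed genes. The median was 2 calls per listed gene, beside 1 over all. Some unlisted symbols are other names of listed genes, such as Nelfcd for Th1l, Cep41 for Tsga14 and Hm13 for H13. The highest counts were 62 for Id1, beside Mcts2, where all 8 listed neighbours had calls, 41 for Fam161a and 27 for Ehbp1, beside Commd1, where all 7 did, and 23 for Ddc, beside Grb10. Around Snrpn and Ube3a, 1 of 8 listed neighbours had a call, Oca2, with 1.

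Of 36 symbols of other imprinted genes outside these clusters, 32 were listed and 19 had a call, or 59.4% beside 60.9% over all listed genes. The median was 2 calls per listed gene, beside 1 over all. Some unlisted symbols are other names of listed genes, such as Jade1 for Phf17 and Ago2 for Eif2c2. Cdh15, a cadherin gene, had 23 calls, reaching 384 kb, the microtubule protein gene Mapt had 14, and Ampd3 and Trappc9 had 10 each. The farthest call of these genes was at 684 kb, for Inpp5f, a phosphatase gene with 2 calls. Xist and Tsix, the noncoding RNA genes of the X inactivation centre, had 1 and 2 calls, up to 34.6 and 26.4 kb away.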
